A study of Mus musculus with 9 samples.

Results

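The D cyclins, the kinases they activate, the inhibitors of these kinases and cyclin G2 were examined in mouse BaF3 cells that carried 1 of 3 fusion kinases. The members were the genes Ccnd1, Ccnd2, Ccnd3, Cdk4, Cdk6, Cdkn1a, Cdkn1b, Cdkn2c, Cdkn2d and Ccng2, named for their part in the control of the cell cycle. Earlier results of these data were known when they were chosen. Each was read from the probe set whose platform annotation gives that symbol alone, and where a gene had several, from the one with the highest mean over the arrays. Of the 10 genes, 9 were measured in this way, among 19938 genes in all. The 1 probe set that names Cdkn1a also names 4930567H12Rik, so Cdkn1a was skipped.

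BaF3 is an established mouse haematopoietic line whose growth depends on interleukin-3. The cells had been infected with a retrovirus coding for BCR-ABL (given as BCR-ABL1P210 in the series text), BCR-RET or FGFR1OP-RET and then sorted on EGFP, and no other treatment is named in the labels. Each group had 3 arrays (Affymetrix GeneChip MouseGene 1.0 ST), 9 in all. BaF3 cells without a fusion were not analysed here, and every difference is therefore one fusion kinase against another. The labels state neither where the 3 arrays of a group differ in origin (infection, culture or extract) nor whether interleukin-3 was in the medium. The p-values hence describe the spread among arrays of a group, and that spread may be technical.

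D cyclins are made in response to growth factor signals and bind the kinases CDK4 and CDK6. The active complexes phosphorylate the RB family of proteins, which frees E2F factors to switch on the genes of DNA replication. INK4 proteins bind CDK4 and CDK6 and block them, whereas CIP/KIP proteins bind whole cyclin and kinase complexes, above all those of CDK2. Cyclin G2 is an unconventional cyclin linked to cell cycle arrest. Cdkn1b and Ccng2 are textbook targets of FOXO factors, which kinase signalling through PI3K and AKT keeps out of the nucleus.

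Without pairing of the arrays by replicate number, none of the 9 genes passed the test between any pair of fusions. The test was limma's moderated test over all 19938 genes, with a threshold of 0.05 on the p adjusted by Benjamini and Hochberg's method. Every adjusted p below is from this test, without the pairing, unless another is named. With the pairing, Ccng2 passed between BCR-RET and BCR-ABL (adjusted p = 0.0213), beside 1.82% of all genes. The same fit, blocked on the number over all 9 arrays, also passed Cdk6 between BCR-RET and FGFR1OP-RET (adjusted p = 0.0210). There 1135 of the 19938 genes passed, and the numbers were not taken as pairs in that comparison. Without the pairing, 0.587% of all genes passed between BCR-RET and BCR-ABL, 1.02% between FGFR1OP-RET and BCR-ABL and 1.33% between BCR-RET and FGFR1OP-RET. At an unadjusted p under 0.05, 1 of the 9 genes passed in the first comparison, 2 in the second and 1 in the third, against 11.4%, 9.75% and 14.9% of all genes. The arrays of the groups did not overlap for 1, 2 and 2 of the 9 genes, against 16.6%, 12.1% and 15.3% of all genes. For 9 genes, none of these counts is far from the background.

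The differences were small and went both ways. The median of the 9 differences was 0.065 (log2) between BCR-RET and BCR-ABL, -0.025 between FGFR1OP-RET and BCR-ABL and 0.13 between BCR-RET and FGFR1OP-RET. Over all genes the medians were 0.026, 0.0015 and 0.025, in the same order. Without regard to sign, the median size of the difference was 0.091, 0.11 and 0.14 for the 9 genes and 0.069, 0.059 and 0.072 for all genes. For 8 of the genes the 95% interval of every difference lay within a change of 1.42-fold in either direction. For Ccng2 the interval reached 2.07-fold, so a change of that size is not contradicted. The comparisons share arrays, since each group serves in 2 of them. Sets of 3 values below follow the order of this paragraph.

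The cells differed between groups in markers of myeloid and erythroid cells, and these stand beside the differences described below. Between FGFR1OP-RET and BCR-ABL, 5 of 12 granulocyte markers rose and 0 fell, and their mean log2 level per array was 9.72 to 10.02 in BCR-ABL, 10.19 to 10.51 in BCR-RET and 10.44 to 10.82 in FGFR1OP-RET. Of 10 monocyte and macrophage markers 3 rose and 0 fell, and the levels were 8.58 to 8.61, 8.70 to 8.78 and 8.95 to 9.25. Between BCR-RET and FGFR1OP-RET, where Cdk6 differed most, 2 of the granulocyte markers (Prtn3 and Cebpe) and 2 of the monocyte and macrophage markers (Cd14 and Mpeg1) were lower in BCR-RET and 0 were higher. Of 8 erythroid and megakaryocyte markers, 2 rose in BCR-RET against BCR-ABL, the comparison in which Ccng2 and Fas differed most. These were the transcription factor genes Gata1 (by 0.75, adjusted p = 0.00513) and Klf1 (by 0.47, adjusted p = 0.0440), and Gata1 and Nfe2 rose in FGFR1OP-RET as well. The mean level of that list was 9.004 to 9.071 in BCR-ABL, 9.17 to 9.27 in BCR-RET and 9.17 to 9.22 in FGFR1OP-RET. Granulocyte markers did not pass between BCR-RET and BCR-ABL, but 3 rose when the arrays were paired by replicate number. Of 10 T and NK cell markers, Gzmb fell by 0.35 in FGFR1OP-RET compared with BCR-ABL, and none of 10 mast cell and basophil markers passed. Of 12 B lymphoid markers none passed in any comparison and of these only Cd79b (9.75) and Vpreb2 (8.99) had means above 8.02, the median of all probe sets. These log2 values have no zero, so no marker can be said to be at 0. The part of these markers in the results was not tested, and in bulk RNA fewer cells of a type and less RNA per cell cannot be told apart.

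**Figure D1:**
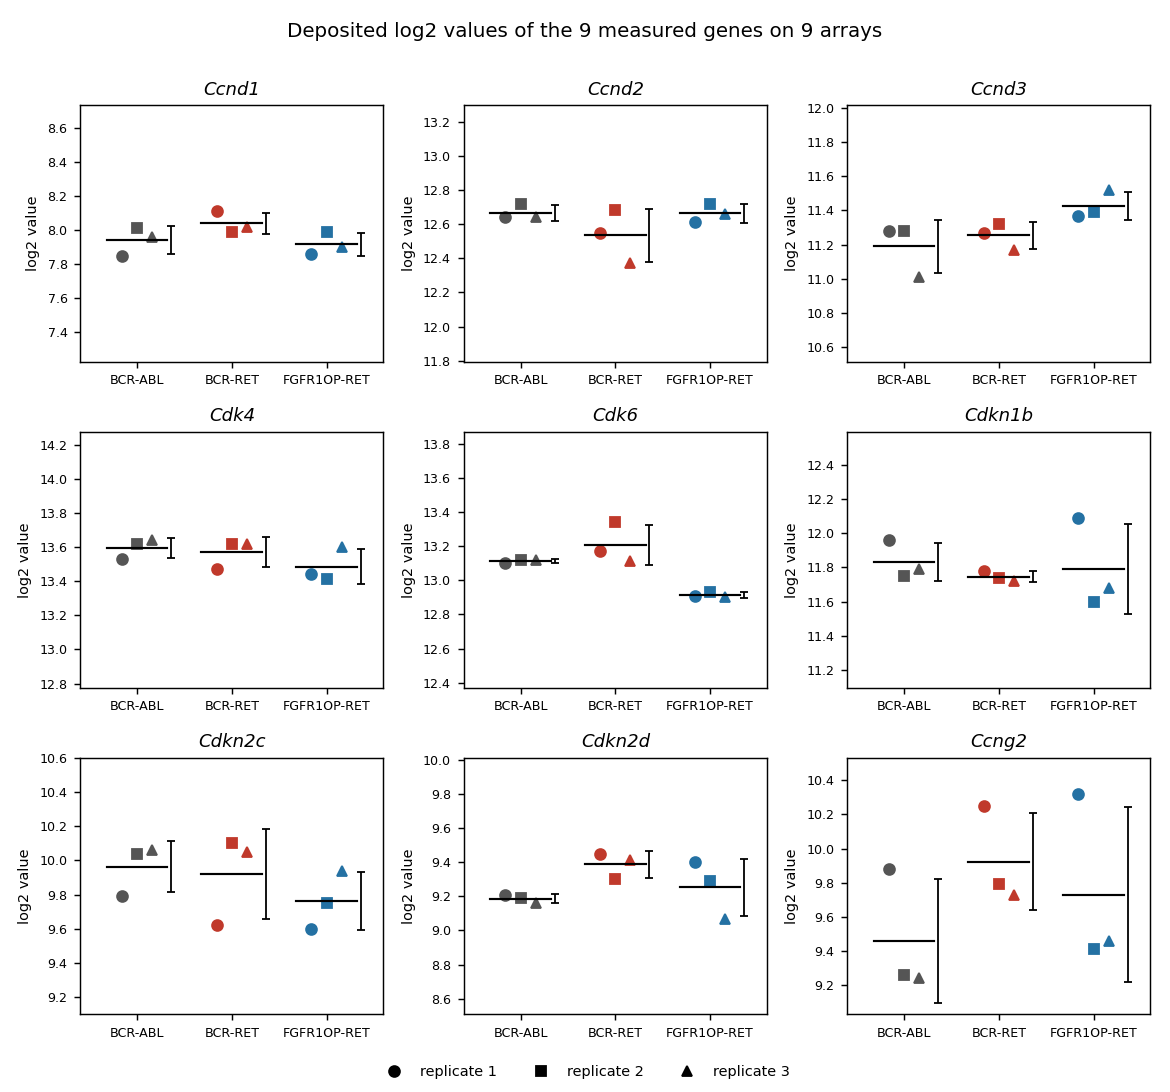
Log2 value (vertical axis, 1.5 log2 units high in each panel) of the 9 measured genes on each array, by fusion group. Symbols mark the replicate number, the line is the mean and the bar the SD of 3 arrays. Cdk6 is the gene whose FGFR1OP-RET arrays, from 12.90 to 12.93, lie below all other arrays, and Ccng2 has the widest spread within groups.

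**Figure D2:**
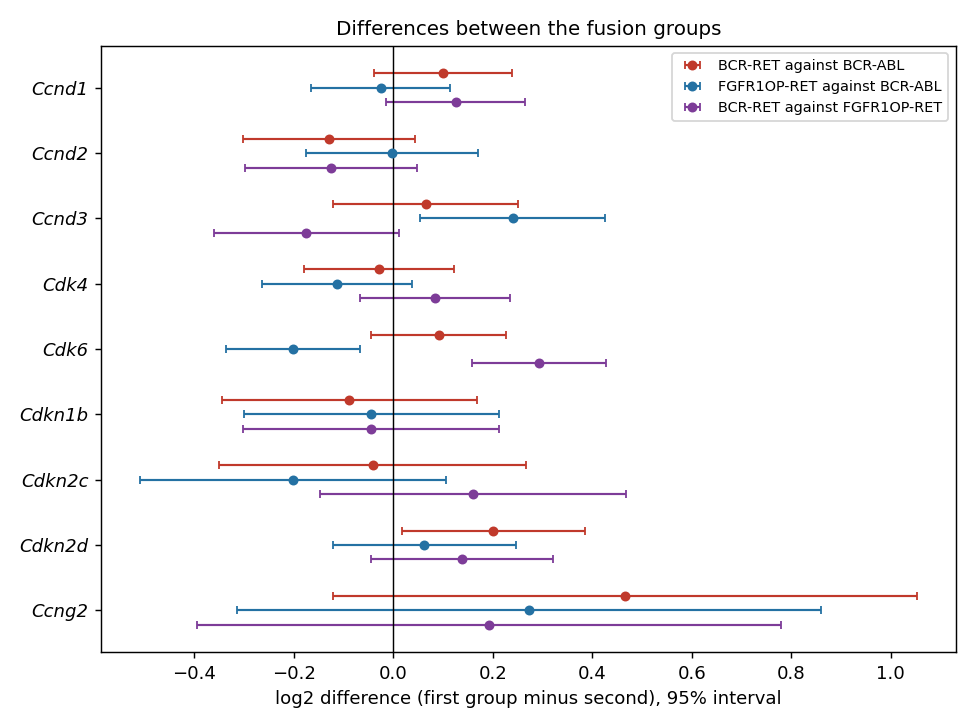
Log2 difference of each gene in the 3 pairwise comparisons (horizontal axis, first group minus second) with its unadjusted 95% interval from limma. The intervals of Cdk6 between BCR-RET and FGFR1OP-RET (0.16 to 0.43) and between FGFR1OP-RET and BCR-ABL (-0.34 to -0.066) exclude 0. So do those of Ccnd3 between FGFR1OP-RET and BCR-ABL (0.054 to 0.43) and of Cdkn2d between BCR-RET and BCR-ABL (0.018 to 0.38). The intervals of Ccng2 are the widest.

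Among the D cyclins, Ccnd3 had the largest difference and Ccnd2 and Ccnd1 differed little. Ccnd3, the D cyclin of many lymphoid cells, measured 11.28, 11.28 and 11.01 in BCR-ABL replicates 1, 2 and 3, 11.27, 11.32 and 11.17 in BCR-RET and 11.37, 11.39 and 11.52 in FGFR1OP-RET (log2). All 3 FGFR1OP-RET arrays lay above the 6 others, while the BCR-ABL and BCR-RET arrays overlapped. The mean of FGFR1OP-RET, 11.43 ± 0.08 (SD, n = 3), stood 0.24 above the 11.19 ± 0.16 of BCR-ABL (SE 0.08, 95% interval 0.054 to 0.43), and this did not pass (adjusted p = 0.344). Without BCR-ABL replicate 3, the lowest array, the difference was 0.15. Against BCR-RET, at 11.25 ± 0.08, it was 0.17 higher (adjusted p = 0.363).

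Ccnd2, the D cyclin induced by STAT5 in blood cells, had means of 12.66 ± 0.05 in BCR-ABL, 12.54 ± 0.16 in BCR-RET and 12.66 ± 0.06 in FGFR1OP-RET. BCR-RET replicate 3, at 12.37, was the lowest array and the groups overlapped in every pair. The difference between FGFR1OP-RET and BCR-ABL was -0.0032, with a 95% interval from -0.18 to 0.17 (adjusted p = 0.995), and its sign turned to 0.032 when the arrays were quantile normalized again. Ccnd1, the D cyclin of many epithelial cells, ranged from 7.85 to 8.11 over the 9 arrays. The mean of Ccnd1, 7.96, lay below 8.02, the median of all probe sets, and above the means of 46.0% of genes. For Ccnd2 and Ccnd3 that share was 97.8% and 89.2%. Its largest difference, 0.13 between BCR-RET and FGFR1OP-RET, did not pass (95% interval -0.014 to 0.26, adjusted p = 0.382).

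Of the kinases that D cyclins activate, Cdk6 came closest to the threshold. It measured 13.10, 13.12 and 13.12 in BCR-ABL replicates 1, 2 and 3, 13.17, 13.34 and 13.11 in BCR-RET and 12.91, 12.93 and 12.90 in FGFR1OP-RET. Every FGFR1OP-RET array lay below every other array, and within BCR-RET replicate 2 stood highest. The order of the means was BCR-RET at 13.21 ± 0.12, BCR-ABL at 13.11 ± 0.01 and FGFR1OP-RET at 12.91 ± 0.01 (SD, n = 3). BCR-RET stood 0.29 above FGFR1OP-RET (1.22-fold, SE 0.06, 95% interval 0.16 to 0.43, adjusted p = 0.0527), the nearest miss among the 9 genes. The same difference passed when the 25% of genes with the lowest means were left out before the adjustment (adjusted p = 0.0452), and it ranged from 0.23 to 0.34 without each array in turn, with adjusted p from 0.0684 to 0.136. Over the other settings without a replicate block the adjusted p ran from 0.0452 to 0.203, the highest being that on the arrays of these groups alone. FGFR1OP-RET stood 0.20 below BCR-ABL (SE 0.06, adjusted p = 0.253), and BCR-RET differed from BCR-ABL by 0.091, with overlapping arrays (95% interval -0.044 to 0.23, adjusted p = 0.578).

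Cdk4, the partner kinase of Cdk6, also had its lowest mean in FGFR1OP-RET, but its arrays did not separate the groups. Its values ran from 13.41 to 13.64 over the 9 arrays and its groups overlapped in every comparison. The means were 13.60 ± 0.06 in BCR-ABL, 13.57 ± 0.09 in BCR-RET and 13.48 ± 0.10 in FGFR1OP-RET. The largest difference, -0.11 between FGFR1OP-RET and BCR-ABL, had a 95% interval from -0.26 to 0.037 (adjusted p = 0.642).

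The promoter windows of both kinases are shown because Cdk6 had the smallest p of the 9 genes and Cdk4 is its closest counterpart. RefSeq windows (build GRCm38.p6, 250 bases before to 50 after the start site) were at hand for 7 of the 9 genes, and Ccnd1 and Ccnd2 had none. Both strands were searched for the E-box CACGTG bound by MYC, the E2F motif TTTNNCGC, the FOXO motif TGTTTAC, the insulin response motif TTGTTTTG and the STAT motif TTCNNNGAA. Capitals mark the matches, and no match overlapped another motif.
Cdk4, chr10:127063285-127063584, + strand: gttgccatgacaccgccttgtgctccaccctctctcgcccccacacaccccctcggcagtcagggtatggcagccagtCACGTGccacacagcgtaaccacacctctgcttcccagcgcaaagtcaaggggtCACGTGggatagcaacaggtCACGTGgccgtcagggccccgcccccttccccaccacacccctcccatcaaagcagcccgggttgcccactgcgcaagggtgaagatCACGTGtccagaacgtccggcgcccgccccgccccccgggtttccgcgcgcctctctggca
Cdk6, chr5:3343643-3343942, + strand: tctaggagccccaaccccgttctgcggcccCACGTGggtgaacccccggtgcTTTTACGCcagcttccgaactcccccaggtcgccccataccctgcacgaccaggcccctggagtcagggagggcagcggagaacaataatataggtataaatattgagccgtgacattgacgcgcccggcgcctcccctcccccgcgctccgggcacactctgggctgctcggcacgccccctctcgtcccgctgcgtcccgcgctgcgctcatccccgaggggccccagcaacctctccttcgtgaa

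The Cdk4 window held 4 E-boxes, and the Cdk6 window held 1 E-box and 1 E2F motif. Of 32851 windows of 300 bases in the table, 7.15% held an E-box and 5.17% the E2F motif. Elsewhere among the 9 windows of these genes, 1 Cdkn2c window held an E-box and 1 Ccnd3 window held the FOXO motif (3.65% of all windows), while no window of the 7 genes held the STAT motif (8.3% of all windows). A match describes these letters and does not show that a factor binds there.

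The INK4 genes Cdkn2c and Cdkn2d code for inhibitors of CDK4 and CDK6. Cdkn2d measured 9.21, 9.19 and 9.16 in BCR-ABL replicates 1, 2 and 3, 9.45, 9.30 and 9.41 in BCR-RET and 9.40, 9.29 and 9.07 in FGFR1OP-RET. The BCR-RET arrays all lay above the BCR-ABL arrays, and the FGFR1OP-RET arrays spanned both. BCR-RET, at 9.39 ± 0.08, stood 0.20 above BCR-ABL, at 9.19 ± 0.02 (SE 0.08, 95% interval 0.018 to 0.38), and this did not pass (adjusted p = 0.393).

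Cdkn2c measured 9.79, 10.04 and 10.06 in BCR-ABL replicates 1, 2 and 3, 9.62, 10.10 and 10.05 in BCR-RET and 9.60, 9.75 and 9.94 in FGFR1OP-RET. The groups overlapped in every pair, and replicate 1 was the lowest array of each group. The largest difference, -0.20 between FGFR1OP-RET and BCR-ABL, had a 95% interval from -0.51 to 0.11 (adjusted p = 0.691). It was -0.12 without FGFR1OP-RET replicate 1.

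Cdkn1b, which codes for the CIP/KIP inhibitor p27, was covered by 2 probe sets. The brighter one, 10542310, measured 11.96, 11.75 and 11.79 in BCR-ABL replicates 1, 2 and 3, 11.78, 11.74 and 11.72 in BCR-RET and 12.09, 11.60 and 11.68 in FGFR1OP-RET. The groups overlapped in every pair, with replicate 1 the highest array of each. Its differences between groups were at most 0.088 in size (adjusted p = 0.774, 0.941 and 0.894). The second probe set, 10542317, measured 10.40, 9.69 and 9.92 in BCR-ABL, 9.9997, 9.72 and 9.89 in BCR-RET and 10.73, 9.72 and 9.48 in FGFR1OP-RET. It gave group differences of -0.13, -0.027 and -0.10, none of which passed among 21789 probe sets with 1 symbol (adjusted p = 0.879, 0.987 and 0.902), and its replicate 1 was again the highest array of each group.

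Ccng2, the gene of cyclin G2, had both the largest group difference and the largest spread. It measured 9.88, 9.26 and 9.24 in BCR-ABL replicates 1, 2 and 3, 10.25, 9.79 and 9.73 in BCR-RET and 10.32, 9.41 and 9.46 in FGFR1OP-RET. Replicate 1 stood above the other arrays in each group, and the groups overlapped in every pair. The means were 9.46 ± 0.36 in BCR-ABL, 9.92 ± 0.28 in BCR-RET and 9.73 ± 0.51 in FGFR1OP-RET (SD, n = 3). The spread within groups, an SD of 0.40, exceeded that of 99.7% of genes, whose median was 0.088. BCR-RET stood 0.47 above BCR-ABL (1.38-fold, SE 0.26, 95% interval -0.12 to 1.05) and this did not pass (adjusted p = 0.518). Without BCR-RET replicate 1 the difference was 0.30, and without BCR-ABL replicate 1 it was 0.68.

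The pairing of arrays by replicate number changed the call of Ccng2 between BCR-RET and BCR-ABL, whose same-numbered arrays deviated together over all genes. Within numbers 1, 2 and 3, BCR-RET exceeded BCR-ABL by 0.37, 0.53 and 0.50, a difference in the same direction in each pair. This was not particular to Ccng2. Cdkn2d was also higher in each of these pairs, and Ccnd2, Cdk4 and the brighter Cdkn1b probe set were lower in each. The limma fit blocked on the number was made on all 9 arrays, those of FGFR1OP-RET among them. In that fit the difference of 0.47 had an SE of 0.08 and passed (adjusted p = 0.0213), beside 1.82% of all genes. The same block on the 6 arrays of these groups alone, an alternative chosen after seeing the data, also gave a call (adjusted p = 0.0120). Without the arrays of number 1, 2 or 3 the blocked difference was 0.51, 0.43 and 0.45 and no longer passed (adjusted p = 0.0704, 0.112 and 0.333).

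The promoter window of Ccng2 is shown because this is the 1 gene whose call against BCR-ABL turned on the pairing, and because Ccng2 is a known FOXO target.
Ccng2, chr5:93267323-93267622, + strand: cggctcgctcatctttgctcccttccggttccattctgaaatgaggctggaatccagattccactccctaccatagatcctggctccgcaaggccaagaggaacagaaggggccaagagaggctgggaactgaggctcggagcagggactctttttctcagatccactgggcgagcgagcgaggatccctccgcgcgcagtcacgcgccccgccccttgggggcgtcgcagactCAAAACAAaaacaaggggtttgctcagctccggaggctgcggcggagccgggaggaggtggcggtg
The capitals mark the insulin response motif on the reverse strand, starting 16 bases before the start site. It was found in 2.51% of all windows of this length. The window held no match to TGTTTAC, the letters searched here as the FOXO motif. That search does not show that the window lacks other sequences to which FOXO factors can bind.

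Within groups, several of the genes varied with the replicate number. Replicate 1 was the highest array in all 3 groups for Ccng2, Cdkn1b and Cdkn2d, which makes 3 of 9 genes beside 8.38% of all genes. It was the lowest in all 3 groups for Cdkn2c, 1 of 9 beside 12.5%. For Ccng2, replicate 1 exceeded the mean of the other arrays of its group by 0.63 in BCR-ABL, 0.49 in BCR-RET and 0.89 in FGFR1OP-RET, each more than the largest difference between group means, 0.47. For Cdkn1b the same excess was 0.20, 0.046 and 0.44 on the brighter probe set and 0.59, 0.19 and 1.13 on the other. For Cdkn2c replicate 1 lay below the others by differences of -0.26, -0.46 and -0.24. On both probe sets of Cdkn1b the excess was smallest in BCR-RET. Replicate 2 was highest in all groups for Ccnd2 (1 of 9, beside 2.34%) and replicate 3 for Cdk4 (1 of 9, beside 6.18%). None of the 9 genes had replicate 2 or replicate 3 lowest in all groups, beside 1.23% and 6.53% of all genes. The granulocyte genes Mpo, Prtn3, Ctsg and Cebpe, 4 of 12 markers, were lowest in replicate 1 of every group, as Cdkn2c was, and 0 were highest. Of 10 mast cell and basophil markers, 2 were lowest in replicate 1 of every group and 1 was highest. For 8 erythroid and megakaryocyte markers the counts were 0 lowest and 2 highest. B lymphoid markers gave 1 and 1, monocyte and macrophage markers 1 and 1, and T and NK cell markers 0 and 0. The labels do not say what a replicate number marks, and the part of these markers or of the numbers in the differences above was not tested.

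**Figure D3:**
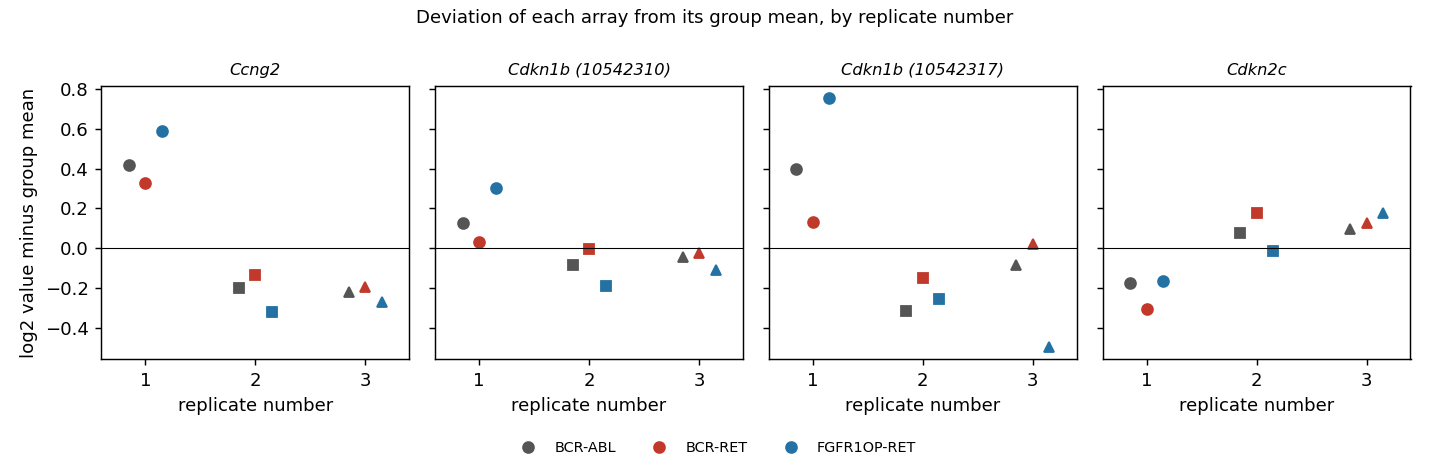
Deviation of each array from its group mean (vertical axis, log2) by replicate number (horizontal axis) for Ccng2, both probe sets of Cdkn1b, and Cdkn2c. Colours mark the groups. All replicate 1 points lie above 0 for Ccng2 and Cdkn1b and below 0 for Cdkn2c.

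The same reading was made of the pathway lists. Of 19 E2F target genes of S phase, replicate 1 was lowest in all groups for 8, among them the helicase genes Mcm3, Mcm4, Mcm5, Mcm6 and Mcm7, and highest for 1, Chaf1a. Of 22 FOXO factors and target genes it was highest for 4 (Foxo3, Bbc3, Cdkn1b and Ccng2) and lowest for 6. Those 6 were Sesn1, Cited2, Sod2, Cat, Rictor and Rbl2. Of 14 mitosis and proliferation genes it was highest for 2 (Mki67 and Birc5) and lowest for 2 (Ccnb2 and Cdc20). For 18 p53 targets and regulators the counts were 4 highest and 1 lowest, and for 17 RB and E2F genes 2 and 4. Among 20 other G1 genes the counts were 2 and 2, and among 15 upstream kinases and factors 3 and 1. Over all genes, the shares were 8.38% highest and 12.5% lowest.

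The genes around the D cyclins in the pathway also gave few calls between the fusions in the fit without a block. Of 17 genes of the RB and E2F proteins, none passed in any comparison, and the list medians were -0.081, -0.022 and -0.023. The activating factor gene E2f2 came closest, with FGFR1OP-RET 0.22 above BCR-ABL (SE 0.04, adjusted p = 0.0518), a gene singled out after its values were seen. None of 20 other G1 cyclins, kinases, inhibitors and turnover factors passed, with medians of -0.014, -0.038 and 0.012. The INK4 genes Cdkn2a and Cdkn2b in that list differed by at most 0.038 in size.

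Further along the pathway, none of 19 E2F target genes of S phase passed, with medians of -0.051, 0.0084 and -0.043. None of 14 mitosis and proliferation genes passed, with medians of -0.058, -0.089 and 0.026. The thymidine kinase gene Tk1, an E2F target singled out after its values were seen, stood 0.34 higher in FGFR1OP-RET than in BCR-ABL (SE 0.08, adjusted p = 0.133).

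Of 22 FOXO factors and target genes, Gadd45a rose in FGFR1OP-RET against BCR-ABL and the others did not pass. Gadd45a codes for a stress protein that binds p21 and the kinase CDK1, and it is also a p53 target. It measured 8.88, 8.76 and 9.06 in BCR-ABL replicates 1, 2 and 3, 8.93, 8.99 and 9.19 in BCR-RET and 9.40, 9.66 and 9.39 in FGFR1OP-RET. The FGFR1OP-RET arrays lay above all others. The rise over BCR-ABL was 0.58 (SE 0.10, adjusted p = 0.0332). The call held in 3 of the 9 fits that each left out 1 array, those without BCR-ABL replicate 3 and BCR-RET replicates 1 and 3 (adjusted p up to 0.168). BCR-RET arrays are not part of this difference. Among the arrays compared, the call was lost without any of them other than BCR-ABL replicate 3. The list medians were 0.025, 0.022 and 3.7e-04. Blocking on the replicate number gave the list 1 rise (Ccng2) and 1 fall between BCR-RET and BCR-ABL, that of the insulin receptor gene Insr, which fell by 0.35 (SE 0.07, adjusted p = 0.0457 with the block and 0.104 without).

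Among 18 measured p53 targets and regulators, Fas rose in BCR-RET against BCR-ABL and Phlda3 in BCR-RET against FGFR1OP-RET. Fas, a death receptor, measured 6.46, 6.38 and 6.50 in BCR-ABL, 6.85, 6.82 and 6.73 in BCR-RET and 6.63, 6.56 and 6.56 in FGFR1OP-RET. The 3 groups did not overlap. The rise over BCR-ABL was 0.35 (SE 0.05, adjusted p = 0.0258). Of the 9 fits that left out 1 array, it held only in the 3 without an FGFR1OP-RET array, which keep every array compared. It was lost in every fit without a BCR-RET or BCR-ABL array (adjusted p from 0.0580 to 0.137). Fas was among the 25% of genes with the lowest means, so it was not tested where these were left out. Phlda3, which codes for an inhibitor of AKT, measured 9.43, 9.44 and 9.45 in BCR-ABL, 9.61, 9.66 and 9.49 in BCR-RET and 9.30, 9.28 and 9.36 in FGFR1OP-RET. Its BCR-RET arrays were the highest and its FGFR1OP-RET arrays the lowest, with no overlap. Between these groups it rose by 0.27 (SE 0.05, adjusted p = 0.0499), a call that held in 1 of the 9 fits, that without BCR-RET replicate 3 (adjusted p up to 0.156). Medians of the list were 0.075, 0.0068 and 0.075. Cdkn1a, the best known p53 target, was not among the genes measured.

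Of 15 measured kinases and factors upstream of the D cyclins, Pim2 alone passed. Pim2 codes for a serine/threonine kinase induced by STAT5 that can phosphorylate p27. It measured 12.14, 12.02 and 12.02 in BCR-ABL replicates 1, 2 and 3, 12.13, 12.37 and 12.09 in BCR-RET and 11.31, 10.81 and 11.07 in FGFR1OP-RET. The FGFR1OP-RET arrays lay well below all others. Pim2 fell by 0.99 in FGFR1OP-RET against BCR-ABL (1.99-fold, SE 0.12, adjusted p = 0.00511) and was 1.13 higher in BCR-RET than in FGFR1OP-RET (adjusted p = 0.00300), and both calls held without each array in turn. Its relative Pim1 and the transcription factor gene Myc did not pass. Myc, an activator of Ccnd2 and Cdk4, was 0.23 lower in BCR-RET than in BCR-ABL (SE 0.07, adjusted p = 0.238). Myc was singled out after its values were seen. The medians of the list were -0.10, -0.029 and -0.075.

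**Figure D4:**
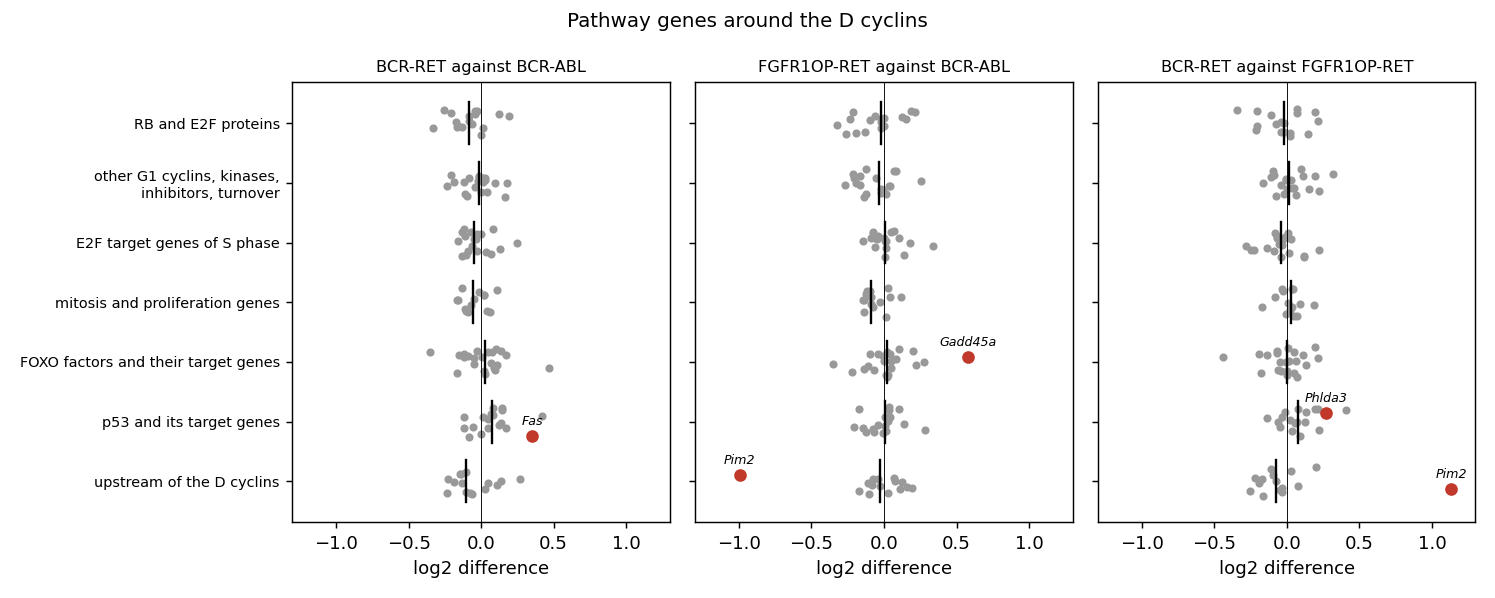
Log2 difference (horizontal axis) of each measured gene in 7 pathway lists, 1 panel per comparison. Grey points did not pass, red points passed and are named, and black bars are list medians. Pim2, at -0.99 and 1.13, lies farthest from 0.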

How the data were processed

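Total RNA of 9 samples was hybridised to 9 arrays. The values deposited are on a log2 scale, from gene-level RMA per the labels, with Expression Console (Affymetrix) named in the submitters' processing notes. The sources used here give neither its version nor a build. RMA makes the arrays' distributions alike, so a shift of most transcripts would not be seen. Array medians lay between 8.006 and 8.044. The number of arrays limits the precision.

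Of 35557 probe sets, 21789 had 1 gene symbol, 1621 several and 12147 none; only the first were used, 1 per gene. Groups came from the sample titles. limma 3.58.1 (lmFit, eBayes) in R 4.3.3 was fitted on all 9 arrays with 1 mean per group, after a test on simulated data. Intervals are at 95% and unadjusted. Deviations from group means correlated between same-numbered BCR-RET and BCR-ABL arrays with r of 0.617, 0.155 and 0.367 across genes, so the numbers were treated as pairs there. FGFR1OP-RET replicate 2 gave r of -0.128 with its BCR-ABL namesake and -0.152 with that of BCR-RET, so comparisons with FGFR1OP-RET were not paired. Its replicates 1 and 3 did correlate with their namesakes, at 0.382 and 0.4 for BCR-ABL and 0.498 and 0.41 for BCR-RET.

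Members and gene lists were chosen with earlier results of these data known. Named genes are all members, pathway genes past the threshold and those said to be singled out. Outside that rule, Pim1, Cdkn2a, Cdkn2b, markers, genes read by replicate number and the genes nearest to Cdk6 and Ccng2 are also named. Alternatives were the block, the arrays fitted, the variance model, the scaling, a filter on dim genes, the probe set per gene and each array left out. A rule to name the genes nearest to members that passed named none.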

Additional observations from a re-analysis of the deposited data

How the results depend on the processing

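The replicate block on all arrays called 362 genes between BCR-RET and BCR-ABL (1 of them a member, Ccng2), 576 between FGFR1OP-RET and BCR-ABL (0 members) and 1135 between BCR-RET and FGFR1OP-RET (1 member, Cdk6, adjusted p = 0.0210), against 117, 203 and 265 genes and 0 members without it. The numbers were not taken as pairs in the latter comparisons. The block changed no other member's call, and on the 2 groups' arrays alone it left Cdk6 at 0.0806. Among pathway genes it added E2f2 (0.0457), Tfdp2 (0.0224), Tk1 (0.0479) and Insr (0.0338) between FGFR1OP-RET and BCR-ABL. Between BCR-RET and FGFR1OP-RET it added E2f2, E2f4, Cks1b, Cdt1, Gadd45a, Sod2, Trp53inp1 and Akt1 (0.0235 to 0.0490). With the block on only the arrays of the 2 groups, chosen after seeing the data, 377 genes (1 member), 272 (0 members) and 414 (0 members) passed. Without number 1 the block gave 48, 131 and 144 genes, without number 2 it gave 102, 171 and 205, and without number 3 it gave 42, 122 and 95, with 0 members each time.

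Without the block, fitting only the arrays of the 2 groups gave 56, 94 and 34 genes and 0 members. Leaving out each array in turn gave 28 to 114, 70 to 185 and 86 to 194 genes, with 0 members throughout. Lowest were 28 and 70 without the second BCR-ABL array and 86 without the second FGFR1OP-RET array. Each array other than BCR-RET replicate 1 and FGFR1OP-RET replicate 3 lowered at least 1 of the counts by over 1.5 times when left out. Leaving out dim genes called 1 member, Cdk6, between BCR-RET and FGFR1OP-RET. Fewer arrays leave fewer degrees of freedom; other causes were not tested. Phlda3 was also lost with a trended, robust variance (adjusted p = 0.0728) and with the mean of a gene's probe sets (0.0502), while Fas (0.0702), Gadd45a (0.0875) and Phlda3 (0.187) were lost with only the 2 groups' arrays. Pim2 was lost with the block without number 3 (0.0760 and 0.0542).

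Of 540 alternative values for the members' 27 differences, 536 stayed on their side of the threshold and 4 newly passed. Under 19 of them an uncalled difference took the other sign. The 3 arrays a group limit the precision to the intervals given.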

Other observations

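The genes whose profiles over the 9 arrays lay nearest to those of Cdk6 and Ccng2 were looked up after their values were seen. Nearness was the root mean square difference of the log2 values, each gene centred on its own mean. For Cdk6 the nearest were Dipk2a at 0.045, Bmpr1b at 0.047 and Pdlim5 at 0.047, where Cdk6 itself varied by 0.13 about its mean and the median over all genes was 0.15. For Ccng2 the nearest were Hilpda at 0.095, Ndrg1 at 0.13 and Bcar1 at 0.14, where Ccng2 varied by 0.38 and the median over all genes was 0.38. Hilpda and Ndrg1 are known as genes induced in low oxygen. The 9 arrays share their groups and replicate numbers, and these values carry no test.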
